A study of Homo sapiens with 6 samples.

Results

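The replication-dependent histone genes supply the H1, H2A, H2B, H3 and H4 proteins that package newly made DNA, and they lie in clusters on chromosomes 6 and 1, with HIST4H4 on chromosome 12. They were taken from the count table as the rows whose symbols carry the older cluster names (HIST1 to HIST4 followed by the histone class), with symbols ending in P or PS, which mark pseudogenes, left out. Of 90 such rows, 15 carried that suffix, and 75 genes of the 57781 listed rows remained. There were 6 H1, 17 H2A, 23 H2B, 14 H3 and 15 H4 genes.

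The counts came from RNA sequencing of A549, a human cell line established from a lung adenocarcinoma. The 3 vector libraries carried an empty vector and are labelled wild type, and the 3 shMETTL3 libraries expressed a short hairpin RNA targeting METTL3, which encodes the enzyme that adds m6A to mRNA (labelled METTL3 knockdown). The comparison asked which transcripts changed in level when METTL3 was depleted. The control was an empty vector rather than a second hairpin, the hairpin libraries are numbered sh1 to sh3 in the count columns without saying whether these are different hairpins, and nothing in the labels says that replicates came from separate cultures, so p-values measure only the spread between these libraries.

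Most mRNAs end in a poly(A) tail, but the mRNAs of replication-dependent histone genes end just after a short stem-loop, which the protein SLBP binds and next to which the U7 small nuclear ribonucleoprotein directs the cut. The genes have no introns in their main form, are transcribed in nuclear bodies organised by NPAT, and are expressed mainly in S phase, when DNA is copied. Some of them also give longer transcripts that run past the stem-loop or are spliced, and end in a poly(A) tail. How RNA was selected for these libraries, by poly(A) tail or by removal of ribosomal RNA, is not given in the sources used here.

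The stem-loop was looked for in the GRCh37 genome, the build the authors used as hg19, within 150 bases after the stop codon that most annotated transcripts of a gene share. Of the 75 genes, 70 could be matched to the GENCODE annotation, 67 of them as coding genes and 3 as pseudogenes that lack the suffix in their symbols (HIST2H2BC, HIST2H2BD and HIST3H2BA). A 16-base stem-loop was found in 66 of the 67 coding genes, starting a median of 36 bases after that stop codon. HIST2H2BF has 2 annotated stop codons, and the commonest form follows the other one. The 3 pseudogenes have no annotated stop codon, and a search of the whole gene and the 150 bases after it found 1 stem-loop in each, of the form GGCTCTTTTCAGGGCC in HIST2H2BC and HIST2H2BD. The commonest form, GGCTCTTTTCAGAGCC, was held by 38 of the 66 genes, and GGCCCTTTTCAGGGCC and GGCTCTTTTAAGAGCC by 9 genes each. The sequences are shown for the 9 genes that were lower after knockdown and for HIST1H3E, whose level moved least among the tested H3 genes and whose loop differs from the common form. Capitals mark the stem-loop, lower case the 5 bases on each side, and all are written 5′ to 3′ on the coding strand.
HIST1H1C, chr6:26055967-26055992, minus strand: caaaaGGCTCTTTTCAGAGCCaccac
HIST1H2AC, chr6:26124892-26124917, plus strand: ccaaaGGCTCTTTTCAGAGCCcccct
HIST1H2AG, chr6:27101289-27101314, plus strand: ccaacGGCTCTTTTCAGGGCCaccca
HIST3H2A, chr1:228645065-228645090, minus strand: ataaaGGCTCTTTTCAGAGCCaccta
HIST1H2BK, chr6:27114140-27114165, minus strand: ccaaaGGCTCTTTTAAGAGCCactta
HIST2H2BE, chr1:149857733-149857758, minus strand: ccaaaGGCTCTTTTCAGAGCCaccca
HIST1H3B, chr6:26031820-26031845, minus strand: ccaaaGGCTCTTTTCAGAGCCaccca
HIST1H3H, chr6:27778289-27778314, plus strand: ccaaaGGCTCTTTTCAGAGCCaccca
HIST1H4I, chr6:27107428-27107453, plus strand: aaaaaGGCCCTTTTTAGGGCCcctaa
HIST1H3E, chr6:26225819-26225844, plus strand: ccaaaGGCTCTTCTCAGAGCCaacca

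Library totals lay between 14931426 and 19108928 counts, and the histone genes together took 0.00995% to 0.0132% of them. METTL3 itself, the targeted gene, was at 49.9 ± 0.676 CPM (SD, n = 3) in vector and 19.4 ± 0.525 CPM (SD, n = 3) in shMETTL3 libraries, with every hairpin library below every vector library (log2 fold change -1.36, adjusted p = 4.57e-16 by the quasi-likelihood test of edgeR; exact permutation test, two-sided, p = 0.1, which is the lowest value possible for 3 against 3). Levels are given as CPM, the count as a share of the library (edgeR's cpm) after the library sizes were scaled by its TMM method. The epithelial genes listed for A549 were at 22405 to 23149 summed CPM in vector and 17070 to 17568 in shMETTL3 libraries, and all 13 were tested, of which 9 fell and 4 rose. The largest changes in this list were those of EPCAM, an adhesion protein (log2 fold change -2.73, adjusted p = 7.80e-23), and of the keratins KRT19 (-2.41, adjusted p = 9.90e-21), KRT18 (-1.35, adjusted p = 4.06e-17) and KRT8 (-1.09, adjusted p = 1.07e-16). The keratin KRT7 rose (0.29, adjusted p = 7.84e-06), as did AKR1C2, an aldo-keto reductase (0.71, adjusted p = 3.89e-13). The changes of EPCAM and KRT19 were larger than that of any tested histone gene. Of 15 markers of blood, endothelial and stromal cells, 14 were in the table and 4 had enough counts to test. Their summed level was 16.8 to 21.8 CPM in vector and 24.4 to 25.4 CPM in shMETTL3 libraries, and CD3E, MS4A1 and VWF were at 0 in every library. Of the 4 tested, COL1A1, a fibrillar collagen, rose from 5.64 ± 1.44 to 10.5 ± 0.452 CPM (SD, n = 3; adjusted p = 3.47e-06), CDH5 rose, ACTA2, a smooth muscle actin, fell from 10.8 ± 1.05 to 8.64 ± 0.532 CPM (SD, n = 3; adjusted p = 0.0148), and LUM was not called. CDH5, an endothelial cadherin, had 0, 0 and 2 counts in vector and 30, 28 and 30 counts in shMETTL3 libraries. The part of these shifts in the histone result was not tested. Of 7 alveolar type 2 markers, 2 were tested, with SFTPB higher and ABCA3 lower in shMETTL3 libraries.

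Of the 75 histone genes, 21 were at 0 in every library, 34 had counts but too few to test, and 20 were tested. Of the 20 tested genes, 9 fell, 2 rose and 9 were not called at an adjusted p under 0.05. Among all 15125 genes tested, 66.6% were called changed, 33.7% higher and 32.9% lower, so the share of histone genes called changed, 55%, was below the share of all genes, and the share called lower, 45%, was above it. The median log2 fold change was -0.49 over the 20 tested histone genes and 0.0022 over all tested genes. In 17 of the 20 genes the fold change was below 0, and in 15 with scaling by library size alone, when HIST1H2BC and HIST1H3E, neither of them called, changed sign. The vector and shMETTL3 libraries did not overlap in 12 of the 20 genes, or 60.0%, against 69.4% of all tested genes. Both genes that rose, HIST2H2BC and HIST2H2BD, are annotated as pseudogenes, so that of the 18 tested coding genes 9 fell and 9 were not called. In bulk RNA, fewer cells in S phase and less histone RNA per cell cannot be told apart.

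**Figure D1:**
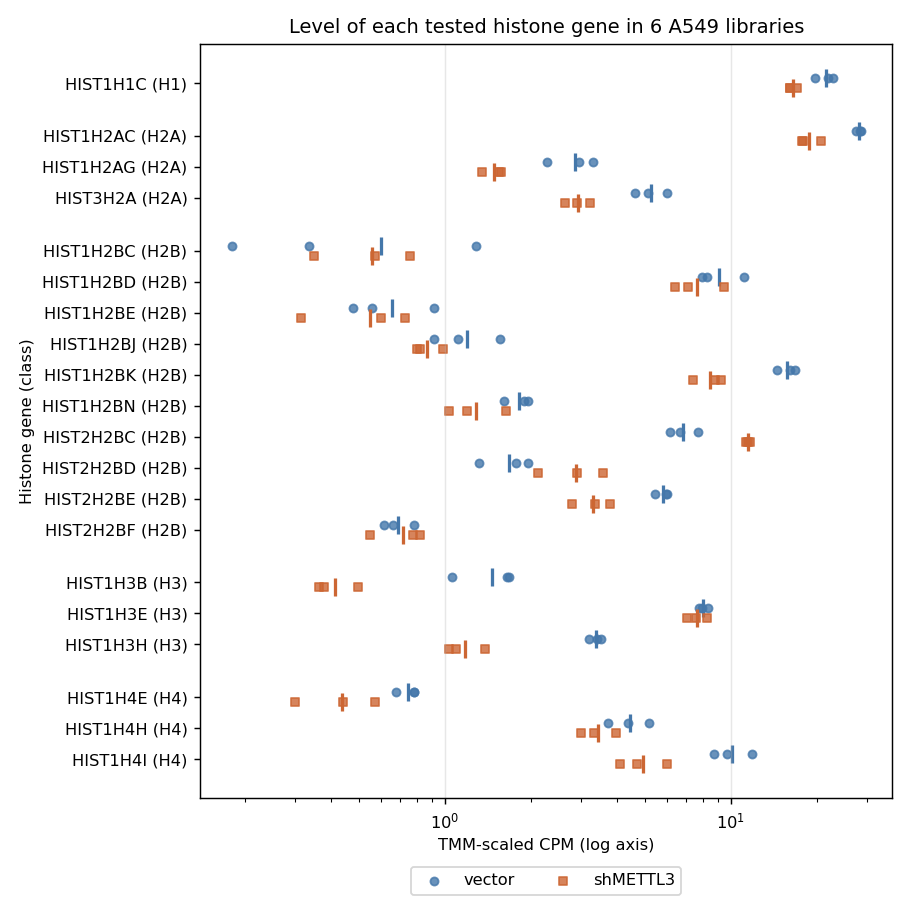
TMM-scaled CPM (log axis) of the 20 tested histone genes in each of the 3 vector libraries (circles) and 3 shMETTL3 libraries (squares), with the group mean as a vertical tick and genes grouped by class. HIST1H3B and HIST1H3H have the widest gap between groups, HIST1H2BC and HIST1H3E overlap, and the squares lie to the right for HIST2H2BC and HIST2H2BD.

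Summed over all listed genes, tested or not, the histone level was 138, 130 and 136 CPM in vector replicates 1 to 3 and 93.0, 96.5 and 106 CPM in shMETTL3 replicates 1 to 3. The sums did not overlap, and the means were 135 ± 4.04 and 98.3 ± 6.54 CPM (SD, n = 3), a ratio of 0.729. By class, the ratio of the shMETTL3 to the vector mean was 0.763 for H1, 0.632 for H2A, 0.845 for H2B, 0.705 for H3 and 0.598 for H4. The H2B sums were the only ones to overlap, from 42.6 to 49.5 CPM in vector and from 35.5 to 42.8 CPM in shMETTL3 libraries. Without the 3 rows annotated as pseudogenes, a choice made after the values were seen, the H2B ratio was 0.653 and that of all remaining 72 genes was 0.664. The sums rest on few genes, since the 5 with the most counts held 62.0% of all histone counts.

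The linker histone H1 sits on the DNA between nucleosomes. HIST1H1C, the only H1 gene with enough counts to test, had 393, 331 and 373 counts in vector and 312, 342 and 257 counts in shMETTL3 libraries. Scaled for depth, the groups did not overlap, at 21.5 ± 1.56 and 16.5 ± 0.511 CPM (SD, n = 3), and the gene fell by 0.38 on the log2 scale (standard error 0.083, adjusted p = 0.000197). With scaling by library size alone the fall was smaller, at -0.21 on the log2 scale (adjusted p = 0.0269). Of the other H1 genes, HIST1H1A and the testis-specific HIST1H1T were at 0 in every library, and HIST1H1D had 3, 1 and 8 counts in vector and 1, 2 and 4 counts in shMETTL3 libraries.

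H2A pairs with H2B, and the dimers flank the H3-H4 core of the nucleosome. All 3 tested H2A genes fell. HIST1H2AC, the histone gene with the most counts, had 513, 472 and 449 counts in vector and 343, 360 and 328 counts in shMETTL3 libraries, every hairpin library being lower. Its level went from 28.1 ± 0.542 to 18.8 ± 1.62 CPM (SD, n = 3; log2 fold change -0.59, standard error 0.078, adjusted p = 2.07e-07). HIST1H2AG had 53, 38 and 54 counts against 26, 31 and 25, with no overlap (log2 fold change -0.93, standard error 0.23, adjusted p = 0.000715). HIST3H2A, in the third cluster, also on chromosome 1, had 83, 86 and 98 counts against 62, 53 and 46, also with no overlap (log2 fold change -0.85, standard error 0.17, adjusted p = 7.45e-05). Of the 14 H2A genes not tested, 5 were at 0 in every library. The highest of the others, HIST1H2AI, had 11, 9 and 13 counts in vector and 5, 9 and 5 counts in shMETTL3 libraries.

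H2B was the class with the most tested genes, 10 of 23, and the only class with genes in both directions: 2 fell, 2 rose and 6 were not called. HIST1H2BK had 289, 243 and 273 counts in vector and 143, 177 and 147 counts in shMETTL3 libraries. The groups were far apart, at 15.8 ± 1.13 and 8.50 ± 0.970 CPM (SD, n = 3; log2 fold change -0.90, standard error 0.11, adjusted p = 2.80e-08). HIST2H2BE, on chromosome 1, had 107, 100 and 89 counts against 54, 67 and 60, with no overlap (log2 fold change -0.82, standard error 0.16, adjusted p = 5.01e-05).

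HIST2H2BC and HIST2H2BD lie near each other on chromosome 1 of GRCh37, HIST2H2BC from 149821760 to 149822339 on the minus strand and HIST2H2BD from 149814608 to 149815100 on the plus strand. HIST2H2BC had 138, 111 and 100 counts in vector and 219, 231 and 185 counts in shMETTL3 libraries, every hairpin library being higher (log2 fold change 0.75, standard error 0.12, adjusted p = 2.32e-06). HIST2H2BD had 35, 22 and 29 counts against 41, 72 and 46, again without overlap after scaling (log2 fold change 0.77, standard error 0.24, adjusted p = 0.00569), but without shMETTL3 replicate 2 its adjusted p was 0.0716 at a log2 fold change of 0.56. Of the 100-base windows of HIST2H2BC, 77.3% occur in HIST2H2BD, and 94.4% of those of HIST2H2BD occur in HIST2H2BC, so that the split of reads between them is uncertain. Their summed level was 8.50 ± 0.984 CPM in vector and 14.4 ± 0.838 CPM in shMETTL3 libraries (SD, n = 3), a ratio of 1.69. The exon of each is wholly covered by that of a long noncoding RNA gene annotated on the same strand.

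The other 6 H2B genes did not pass the test. HIST1H2BD had 200, 138 and 130 counts in vector and 123, 142 and 151 counts in shMETTL3 libraries, overlapping (log2 fold change -0.27, standard error 0.15, adjusted p = 0.1001). Its value rested on single libraries, at -0.11 without vector replicate 1, -0.15 without shMETTL3 replicate 1 and -0.45 (adjusted p = 0.0126) without shMETTL3 replicate 3. HIST1H2BN had 34, 27 and 32 counts against 20, 24 and 26 (log2 fold change -0.52, standard error 0.27, adjusted p = 0.0875), and its CPM overlapped in a single pair of libraries. Without shMETTL3 replicate 3 it was called (-0.70, adjusted p = 0.0435). HIST1H2BJ had 20, 26 and 15 counts against 19, 16 and 13 (log2 fold change -0.46, standard error 0.32, adjusted p = 0.206), and stood at -0.24 without vector replicate 2. HIST1H2BC, HIST1H2BE and HIST2H2BF each had between 60 and 74 counts over all libraries, with log2 fold changes of -0.11, -0.21 and 0.04 and wide standard errors of 0.52, 0.42 and 0.37. Leaving out single libraries turned the direction of each, and HIST1H2BC stood at 1.05 (adjusted p = 0.129) without vector replicate 3. HIST1H2BC, HIST1H2BE, HIST2H2BF and the H4 gene HIST1H4H overlap other annotated genes on the opposite strand, and whether the counting used strand is not given in the sources used here. Among the untested H2B genes, HIST3H2BB had 10, 11 and 8 counts against 9, 6 and 6, and HIST1H2BF had 8, 6 and 9 against 13, 3 and 7.

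H3 and H4 form the central tetramer of the nucleosome, and their tails carry many of the marks that regulate chromatin. The 2 H3 genes that were called had the largest fold changes among the 20 tested histone genes. HIST1H3B had 19, 28 and 27 counts in vector and 7, 10 and 6 counts in shMETTL3 libraries, and the highest hairpin library was well below the lowest vector library (log2 fold change -1.79, standard error 0.36, adjusted p = 8.48e-05). This gene passed the count filter through its vector libraries, where it is higher. It was not tested when 10 counts were required in every library. HIST1H3H had 61, 59 and 52 counts against 20, 22 and 22, also far apart (log2 fold change -1.53, standard error 0.22, adjusted p = 9.10e-07). HIST1H3E had 150, 130 and 130 counts against 136, 152 and 131, and its groups overlapped at 8.04 ± 0.294 and 7.63 ± 0.605 CPM (SD, n = 3; log2 fold change -0.08, standard error 0.12, adjusted p = 0.565). Whether HIST1H3E differed in its response from the other H3 genes was not tested. Of the 11 H3 genes not tested, 4 were at 0 in every library, and HIST1H3C, the highest of the others, had 7, 4 and 2 counts against 0, 5 and 0.

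Of the 3 tested H4 genes, HIST1H4I fell. It had 157, 198 and 158 counts in vector and 91, 82 and 95 counts in shMETTL3 libraries, with no overlap, and its level went from 10.1 ± 1.59 to 4.93 ± 0.965 CPM (SD, n = 3; log2 fold change -1.05, standard error 0.15, adjusted p = 4.91e-07). HIST1H4H had 93, 73 and 61 counts against 77, 60 and 53 (log2 fold change -0.37, standard error 0.17, adjusted p = 0.0638), and its groups overlapped. The change was -0.24 without vector replicate 1, and it was called without vector replicate 3 (-0.48, adjusted p = 0.0235) or shMETTL3 replicate 1 (-0.49, adjusted p = 0.0339). HIST1H4E had 14, 13 and 11 counts against 11, 6 and 7. Its CPM did not overlap between groups, but the change missed the threshold (log2 fold change -0.77, standard error 0.41, adjusted p = 0.0978). HIST4H4, the single gene of the fourth cluster, had 8, 4 and 8 counts against 5, 10 and 8 and was not tested.

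**Figure D2:**
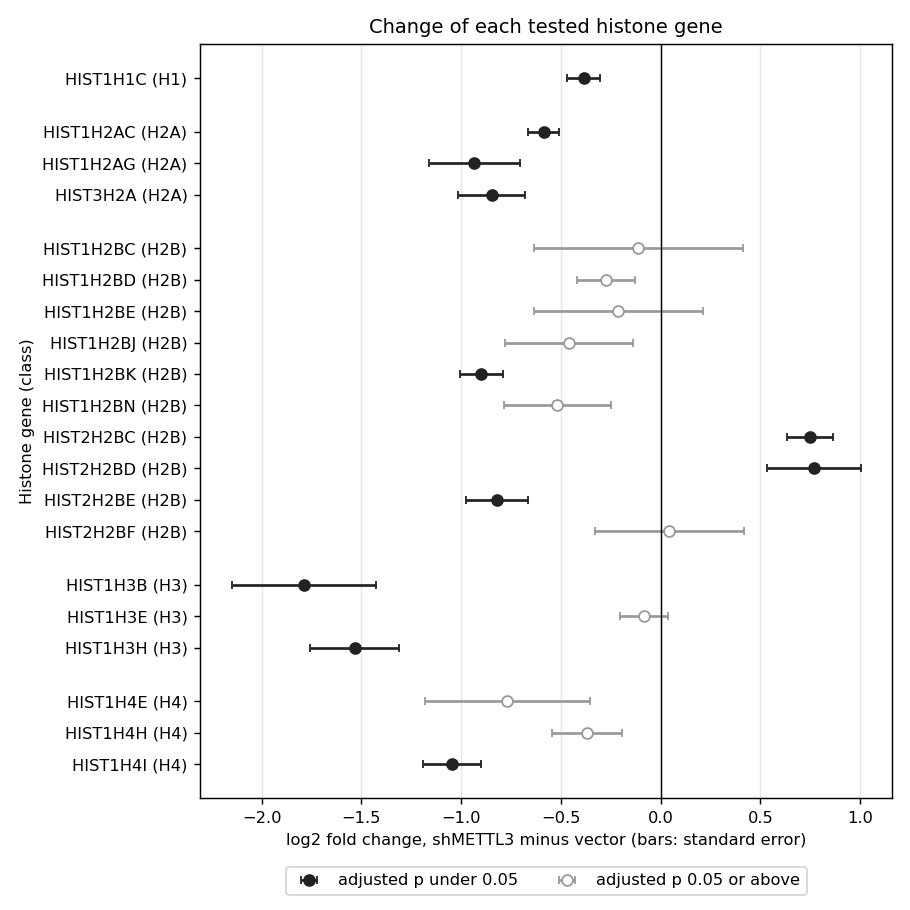
The log2 fold change (shMETTL3 minus vector, edgeR) of each tested histone gene with its standard error, grouped by class. Filled points passed an adjusted p of 0.05; 9 of them lie below 0, from -0.38 for HIST1H1C to -1.79 for HIST1H3B, and 2, HIST2H2BC and HIST2H2BD, lie above 0.

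By genomic cluster, 7 of the 15 tested HIST1 genes on chromosome 6 fell (46.7%, against 32.9% of all tested genes) and 8 were not called, with a median log2 fold change of -0.52. Of the 4 tested HIST2 genes on chromosome 1, 1 fell, 2 rose and 1 was not called. Between the first and the last HIST1 gene on chromosome 6 (25723625 to 27861669), 19 other genes were tested. Of these neighbours 6 rose, 6 fell and 7 were not called, where 33.7% of all tested genes rose and 32.9% fell. Their median log2 fold change was -0.04. Within this interval, the butyrophilin genes BTN2A1 (0.90, standard error 0.081, adjusted p = 1.42e-10) and BTN3A2 (-0.61, standard error 0.10, adjusted p = 6.24e-06) moved in opposite directions on the log2 scale.

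Most of the counts came from the tested genes. The 55 genes that were not tested held 402 of the counts summed over 6 libraries, or 3.27% of all histone counts, and of the 34 with any count the highest had 52. Their summed level was 4.81 ± 1.05 CPM in vector and 2.86 ± 0.223 CPM in shMETTL3 libraries (SD, n = 3). Per kilobase of annotated exon, the vector level was highest for HIST1H2BK (31.9 CPM per kilobase), HIST1H1C (29.4) and HIST1H4I (25.4), followed by HIST1H2AC (16.9), and it was under 0.5 for HIST1H2BC, HIST1H2BE, HIST1H2BN and HIST2H2BF. A pair of nuclear RNAs that carry no poly(A) tail was chosen after their values were seen. RN7SK had 27, 5 and 33 counts in vector and 14, 3 and 20 counts in shMETTL3 libraries, and RMRP had 0 to 5 counts. What sets these counts, or those of the untested histone genes, was not tested.

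The annotation was used to ask whether the measured genes share a longer transcript form. Of the 66 genes with a stem-loop after the stop codon that most transcripts share, 17 have annotated exons reaching more than 100 bases past it, by 285 to 4551 bases, and the other 49 end within 11 bases of it. Of the 17 genes with longer exons, 11 were tested and 1 was at 0, and the median total was 109 counts. Of the 49 that end at the stem-loop, 6 were tested and 16 were at 0, and the median total was 2 counts. Of these 49 genes, 8 share over 50% of their 100-base windows with another histone gene, and 4 of the 8 were at 0 (HIST1H2AM, HIST1H4J, HIST2H3A and HIST2H3C). For HIST1H2AM the shared windows lie where its exon overlaps that of HIST1H3J by 346 bases on the same strand. HIST1H3J had 2 counts in all. HIST1H2AD and HIST1H3D, also at 0, overlap another annotated gene on the same strand. Reads from shared sequence may be lost or split in the counting, as for HIST2H2BC and HIST2H2BD. A longer exon can collect more reads, and where the reads lie along a gene is not given by the count table. Among the 6 tested genes that end at the stem-loop (HIST1H1C, HIST1H2AG, HIST1H2BK, HIST1H3B, HIST1H4E and HIST1H4I), 5 fell and HIST1H4E was not called, with a median log2 fold change of -0.92. Among the 11 with longer exons, HIST1H2AC, HIST2H2BE, HIST1H3H and HIST3H2A fell and 7 were not called, with a median of -0.46. Of the 6 genes that end at the stem-loop, HIST1H3B and HIST1H4E passed the count filter through their vector libraries, where they are higher. Such a filter favours falls among genes with few counts. This grouping was chosen after the values were seen, and the difference between the groups was not tested.

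Promoter letters were compared between the classes. RefSeq promoter windows of GRCh38.p14, from 250 bases before to 50 bases after the start, were matched for 61 of the 75 genes, 15 of them tested. Each set of letters was searched on both strands, except TATAAA, which was searched only on the strand of the gene. The first was CCAAT, a common promoter element bound by NF-Y. The second was the TATA element, taken as either TATAAA or, as a looser form of the same element, TATATA, whose matches may overlap each other. The third was the octamer ATTTGCAT, bound by OCT1, the product of the POU2F1 gene. The last was the H1 box, a short element of linker histone promoters with the letters AAACACA. The CCAAT letters were in every H1, H2A, H2B and H3 window and in 3 of 13 H4 windows, against 34.6% of the 35116 promoters in the table. The octamer was in 11 of 16 H2A and 13 of 16 H2B windows and in no H1, H3 or H4 window, against 1.77% of all promoters. Many H2A and H2B windows cover the same stretch read on opposite strands, as those of HIST1H2AC and HIST1H2BC do. A single site can therefore be counted in both classes, and the windows are not independent. The windows of HIST2H3A and HIST2H3C are nearly the same sequence. The H1 box was in all 6 H1 windows, in 2 of 10 H3 windows (HIST2H3A and HIST2H3C) and in 1 of 16 H2A windows (HIST2H2AC), against 5.64% of all promoters. A TATA element was in 67.2% of the histone windows, against 10.2%. The windows are shown for the 3 genes that fell by more than 1 on the log2 scale, HIST1H3B, HIST1H3H and HIST1H4I, and for HIST1H2AG, which shares 253 bases of its window with that of HIST1H2BJ, read on the other strand. Capitals mark matches to these letters, which describe the sequence and do not show that a factor binds.
HIST1H3B, chr6:26032050-26032349, minus strand: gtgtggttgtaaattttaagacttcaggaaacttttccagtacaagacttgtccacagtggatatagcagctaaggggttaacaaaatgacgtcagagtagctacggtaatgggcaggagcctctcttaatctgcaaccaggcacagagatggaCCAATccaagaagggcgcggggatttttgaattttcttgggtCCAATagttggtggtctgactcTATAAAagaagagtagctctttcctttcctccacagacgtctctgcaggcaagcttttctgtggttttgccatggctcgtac
HIST1H3H, chr6:27809801-27810100, plus strand: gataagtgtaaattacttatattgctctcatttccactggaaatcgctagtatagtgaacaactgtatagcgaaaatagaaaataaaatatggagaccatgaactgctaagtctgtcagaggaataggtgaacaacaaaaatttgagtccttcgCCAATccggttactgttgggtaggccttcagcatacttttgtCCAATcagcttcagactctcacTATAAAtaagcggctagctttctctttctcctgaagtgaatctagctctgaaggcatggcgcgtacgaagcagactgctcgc
HIST1H4I, chr6:27139032-27139331, plus strand: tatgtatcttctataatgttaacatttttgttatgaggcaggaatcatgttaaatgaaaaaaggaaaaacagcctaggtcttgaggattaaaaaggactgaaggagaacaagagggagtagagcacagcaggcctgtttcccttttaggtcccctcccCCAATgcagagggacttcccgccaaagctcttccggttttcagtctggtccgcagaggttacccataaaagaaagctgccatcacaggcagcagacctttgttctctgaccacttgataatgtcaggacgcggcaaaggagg
HIST1H2AG, chr6:27132793-27133092, plus strand: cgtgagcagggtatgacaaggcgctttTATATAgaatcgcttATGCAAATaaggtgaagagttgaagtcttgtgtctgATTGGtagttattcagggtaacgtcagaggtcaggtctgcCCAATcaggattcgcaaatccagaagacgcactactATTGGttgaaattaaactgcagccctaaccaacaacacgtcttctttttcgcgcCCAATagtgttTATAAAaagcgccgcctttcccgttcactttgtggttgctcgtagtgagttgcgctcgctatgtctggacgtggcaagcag
HIST1H3B and HIST1H3H each hold 2 CCAAT matches and 1 TATA match, HIST1H4I holds 1 CCAAT match, and HIST1H2AG holds 4 CCAAT matches, 2 TATA matches and 1 octamer. From the sequence shared by HIST1H2AG and HIST1H2BJ, the H2A gene fell by 0.93 on the log2 scale while HIST1H2BJ, at -0.46, did not pass the test. Whether these 2 changes differ was not tested.

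Related genes were compared as lists, with the shares of all genes given above as background. Variant histones are encoded outside these clusters, and many of them are made outside S phase too. Of 19 listed, 12 were tested, 11 fell and H1F0 was not called (-0.11, adjusted p = 0.0720), with a median log2 fold change of -0.55. H2AFZ, the H2A variant at active promoters, went from 119 to 155 CPM in vector to 67.3 to 77.3 CPM in shMETTL3 libraries (log2 fold change -0.94, adjusted p = 4.53e-12). CENPA, the H3 variant of centromeres, fell by 0.86 on the log2 scale (adjusted p = 7.91e-09). H3F3A and H3F3C fell by 0.68 and 0.82 on the log2 scale, at levels under 4 CPM. The 7 variants not tested, among them H1FOO and H2BFWT, were at 0 in every library.

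The factors that make and process histone mRNA were called about as often as all genes. Of 26 listed, 24 were in the table and all were tested: 8 rose, 8 fell and 8 were not called, so that 66.7% were called against 66.6% of all genes, with a median log2 fold change of -0.03. SLBP, which binds the stem-loop, was at 45.4 to 49.9 CPM in vector and 44.9 to 47.5 CPM in shMETTL3 libraries, overlapping (log2 fold change -0.02, standard error 0.062, adjusted p = 0.781). NPAT was not called either (0.07, standard error 0.13, adjusted p = 0.617), while CASP8AP2, which joins NPAT in histone locus bodies, rose by 0.39 on the log2 scale (standard error 0.13, adjusted p = 0.0120). SYMPK, a scaffold of the cleavage complex, fell by 0.99 on the log2 scale (standard error 0.060, adjusted p = 4.96e-14). NCBP2, the small cap-binding subunit, rose by 0.83, CSTF2, a cleavage factor subunit, by 0.80 and CTIF, a translation factor that binds the cap complex, by 0.60 on the log2 scale (adjusted p of 5.89e-13, 2.90e-10 and 8.72e-08).

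Of 18 transcription and cell cycle genes tested, 8 fell, 4 rose and 6 were not called. CCNA2, the S-phase cyclin, went from 51.7 to 59.1 CPM in vector to 20.9 to 23.6 CPM in shMETTL3 libraries (log2 fold change -1.31, adjusted p = 3.73e-15). CDK2, which phosphorylates NPAT, fell by 1.22 and E2F2, an activator of S-phase genes, by 1.20 on the log2 scale (adjusted p of 4.87e-13 and 1.55e-08). CDKN1A, the CDK inhibitor p21, rose by 0.91 (adjusted p = 3.07e-14). All 40 listed S-phase genes were tested, of which 33 fell, POLA1 rose and 6 were not called, with a median log2 fold change of -0.58. The largest fall in this list, that of the licensing factor CDT1, was 31.6 to 36.8 CPM in vector against 9.58 to 9.68 CPM in shMETTL3 libraries (log2 fold change -1.79, adjusted p = 3.17e-16), and CDC45 of the replicative helicase, RRM2 of ribonucleotide reductase and the loading factor CDC6 fell by 1.33, 1.33 and 1.19 on the log2 scale. SLBP, E2F1 and CCNE2 stand in this list and in another. The part of these shifts in the histone result was not tested.

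Histone chaperones carry new histones to DNA. Of 26 listed, 24 were tested: 13 fell, 5 rose and 6 were not called, with a median log2 fold change of -0.14. TONSL, which reads new H4 behind the fork, fell by 1.44 on the log2 scale (standard error 0.11, adjusted p = 4.53e-12), and ASF1B, the H3-H4 chaperone of dividing cells, fell by 1.10 (standard error 0.092, adjusted p = 3.94e-11). ATRX, which deposits H3.3 with DAXX, rose by 1.29 (standard error 0.077, adjusted p = 2.88e-14), and CDAN1, a partner of ASF1, rose by 0.79 (standard error 0.11, adjusted p = 6.99e-07). DAXX itself is listed at 0 in every library. Whether its RNA was absent or its reads were not counted was not tested.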

How the data were processed

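RNA of 3 vector and 3 shMETTL3 A549 libraries was sequenced, and the sample titles gave the group and number of each library. The authors deposited whole-number counts per gene symbol without normalization. The submitters' processing notes name cutadapt 3.0, HISAT2 2.2.1, SAMtools 1.13, HTSeq 0.13.5 and hg19, the paper's methods give other versions of the mapper and the counter, and the annotation and strand setting are not given in the sources used here. Without strand, reads of overlapping genes on opposite strands cannot be told apart.

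Counts were filtered (filterByExpr), scaled by TMM and tested in R 4.3.3 with edgeR 4.0.16 (quasi-likelihood, group only), with Benjamini-Hochberg adjustment over 15125 genes; every adjusted p is from this fit unless another is named. Alternatives were RLE, upper-quartile and library-size scaling, DESeq2 1.42.0, limma-voom (limma 3.58.1), no filter or a minimum of 10 counts per library, a replicate block, each library left out, and stricter thresholds. At these depths 3 counts equal 0.150 to 0.189 CPM, which covers counting error only. The functions were tested on simulated data.

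Named were all tested members and, in each list, SLBP, NPAT and CASP8AP2 and the 4 called genes with the largest changes; H1F0, POLA1, the butyrophilin genes, KRT7, AKR1C2, RN7SK, RMRP, and untested or uncalled genes given with values were chosen after their values were seen. Members and lists were chosen with earlier results of these data known. ZCCHC6, ZCCHC11 and PECAM1 had no row under these names. Stem-loops and gene models came from GRCh37 with GENCODE version 44; older symbols were matched through RefSeq synonyms, and 5 members (HIST1H2BF, HIST1H2BG, HIST1H4F, HIST2H2BA and HIST2H2BB) were left unmatched. A stem-loop pattern of 15 letters planned first was too short and matched 0 genes, so the 16-base form was used. No chance test was run over the member list.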

Additional observations from a re-analysis of the deposited data

How the results depend on the processing

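The 11 calls among the histone genes were the same 11 genes under all 4 scalings, DESeq2, limma-voom, an adjusted p under 0.01 and the replicate block. Directions changed only among members not called: HIST1H2BC and HIST1H3E with library size alone, HIST1H2BC with limma-voom and with the block, and HIST1H2BC, HIST1H2BE or HIST2H2BF with single libraries left out. The replicate numbers did not pair the samples (correlations of same-numbered deviations 0.069, -0.024 and 0.039), and the block changed none of these calls. Without a filter HIST1H2BL was also called, and with at least 10 counts in every library HIST1H3B was removed. When single libraries were left out, the number of members lower ran from 9 to 11, that of members higher ran from 1 (without shMETTL3 replicate 2, when HIST2H2BD was lost) to 2, and the median log2 fold change of tested members ran from -0.57 to -0.44. HIST1H2BD was called lower without vector replicate 3 or shMETTL3 replicate 3, HIST1H4H without vector replicate 3 or shMETTL3 replicate 1, and HIST1H2BN without shMETTL3 replicate 3. With an absolute log2 fold change of at least 1, 3 members were called (HIST1H3B, HIST1H3H and HIST1H4I), 3 lower and 0 higher, with 0 processing factors, 0 variants, 3 chaperones, 3 transcription and cell cycle genes and 7 S-phase genes. Scaling by library size alone gave a median of -0.32 for tested members and moved that of all genes to 0.18, with 65.8% of calls higher against 50.6%. Depth limits the tested members with 109 counts or fewer in all, whose standard errors exceeded 0.3.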
